A study of Mus musculus with 22 samples.

Results

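The tumour suppressor p53 and 9 of its best known target genes were followed in mouse cortical neural stem cells (NSCs). The 10 genes were taken by symbol, namely Trp53, Mdm2, Cdkn1a, Ccng1, Bbc3, Bax, Perp, Phlda3, Aen and Zmat3. All 10 were found among the 20396 genes present in both the RNA-Seq and the Ribo-Seq tables. The p53 protein is a transcription factor that binds DNA as a tetramer after DNA damage and other stress, and it switches on genes for cell-cycle arrest, repair and apoptosis. Its own level is set mainly by degradation of the protein, through the ubiquitin ligase encoded by the target Mdm2, so Trp53 mRNA and p53 activity need not move together. In neural progenitors p53 is known for eliminating cells after DNA damage or mitotic errors.

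The NSCs came from cortex of 129SvJae mouse embryos and were grown with EGF and bFGF. C1 and C4 cells were floxed at both Msi1 and Msi2, the genes of the RNA-binding Musashi proteins. C4 cells also carried a tamoxifen-inducible Cre, while C1 cells lacked Cre and controlled for 4-hydroxytamoxifen (4-OHT, 48 h). The MSI1 and MSI2 cells, named tetO-Msi1 and tetO-Msi2 here, carried a doxycycline (Dox) inducible cDNA in the Col1a1 locus and the m2rtTA transactivator in Rosa26, and KH2 cells carried the transactivator with no Msi cDNA (Dox, 72 h). All of these lines had E12.5 cells (embryonic day). A second set from E13.5 held untreated KH2 cells plus tetO-Msi1 cells in both Dox states. RNA-Seq covered all of these conditions, and Ribo-Seq covered C1, C4, KH2 and tetO-Msi1 cells of E12.5. Each condition was 1 library of 1 line, so line, embryo and library cannot be told apart. The exception was untreated tetO-Msi1 cells of E13.5, a pair of technical replicates that were summed, which left 13 RNA-Seq libraries beside the 8 Ribo-Seq libraries.

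RNA-Seq libraries held 7889966 to 60791605 counted reads and Ribo-Seq libraries 657288 to 6381242. Of the Ribo-Seq libraries, untreated KH2 cells stood apart, with 66.7% of counted footprints on the single gene Hes7. Msi2 mRNA was 13.8 and 1.52 CPM (counts scaled to a library of fixed size) in C4 cells without and with 4-OHT and 17.6 and 22.6 CPM in C1 cells. Msi1 was 15.6 and 14.9 CPM in C4 cells and 43.5 and 37.4 CPM in C1 cells, so Msi2 was much lower after 4-OHT in the cells with Cre and Msi1 was little changed. Which exons are floxed, and how many of the counted reads lie in them, was not analysed here. Dox brought Msi1 from 68.2 to 371 CPM (E12.5) and from 96.1 to 369.7 CPM (E13.5) in tetO-Msi1 cells, and Msi2 from 17.1 to 92.2 CPM in tetO-Msi2 cells. All 7 of the neural stem markers found in the tables, of 8 listed, had more than 5 reads in each of the 13 libraries and summed to 9610 to 13930 CPM. The 5 red cell markers summed to at most 0.774 CPM, the 3 microglial markers found to at most 0.192 CPM, the 5 fibroblast markers to at most 9.28 CPM and the 4 endothelial markers to at most 2.59 CPM. Markers of neurons (311 to 748 CPM), astrocytes (705 to 1511 CPM) and the oligodendrocyte lineage (1249 to 2524 CPM) were read in all 13 libraries.

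p53 recognises a pair of 10-base half-sites, and the best match to the p53 consensus (its half-site repeated without a spacer, both strands, the 4 core bases fixed) was sought within 3000 bases either side of each gene's outermost annotated start in mm9. The closest matches of the members outside exons are shown because p53 is known to act on its targets through such sequences. Capitals mark the 20-base site, written 5′ to 3′ on the strand of the gene.
Zmat3 (chr3:32263238-32263287, minus strand, intron, 1338 bases after the start, 0 mismatches): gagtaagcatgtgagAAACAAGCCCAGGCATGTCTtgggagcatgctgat
Cdkn1a (chr17:29227858-29227907, plus strand, 41 bases before the start, 1 mismatch): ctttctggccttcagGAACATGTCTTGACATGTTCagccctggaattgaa
Ccng1 (chr11:40568423-40568472, minus strand, intron, 366 bases after the start, 1 mismatch): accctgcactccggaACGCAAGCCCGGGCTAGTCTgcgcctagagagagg
Perp (chr10:18562825-18562874, plus strand, 2027 bases before the start, 2 mismatches): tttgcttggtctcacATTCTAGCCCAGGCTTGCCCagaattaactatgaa
Bax also held a match with 2 mismatches, in an exon 315 bases after its start. A match with at most 1 mismatch lay near 3 of the 10 members and near 0.965% of 22380 protein-coding genes, and one with at most 2 lay near 5 members and 5.94% of those genes. The best match was at 3 mismatches for Trp53, Mdm2, Bbc3 and Aen and at 4 for Phlda3. A match is a string of letters and not a measured binding site.

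The positions of the genes are those of mm9. Trp53 (chr11:69393861-69405375) and Ccng1 (chr11:40562054-40568813) share a chromosome, as do Mdm2 (chr10:117125944-117147814) and Perp (chr10:18564877-18576879), and Bbc3 (chr7:16894965-16903554), Bax (chr7:52717065-52722268) and Aen (chr7:86040740-86056095). The others are Cdkn1a (chr17:29227924-29237667), Phlda3 (chr1:137662696-137665713) and Zmat3 (chr3:32233718-32264600). The lengths behind the RNA-Seq RPKM values were 338 to 994 bases and shorter than the annotated coding bases for all 10 members (375 to 1467). No other annotated gene overlapped a member.

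Levels are given as RPKM scaled by TMM (trimmed mean of M values, which puts libraries on a common scale), so that they can be set against each other per length that the authors counted over. By the median over the 13 libraries the order of mRNA levels was Bax (411), Ccng1 (389.7), Cdkn1a (353), Aen (158), Phlda3 (151), Trp53 (107), Mdm2 (92.0), Zmat3 (79.5), Bbc3 (68.5) and Perp (3.22). The ranges of each pair of neighbours in this order overlapped. The narrowest ranges were those of Mdm2 (72.6 to 109) and Phlda3 (109.8 to 166), and the widest those of Bbc3 (8.09 to 116) and Perp (0.793 to 11.5). Of Perp, a membrane protein of desmosomes and apoptosis, tetO-Msi1 cells with Dox at E12.5 gave only 3 reads.

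**Figure D1:**
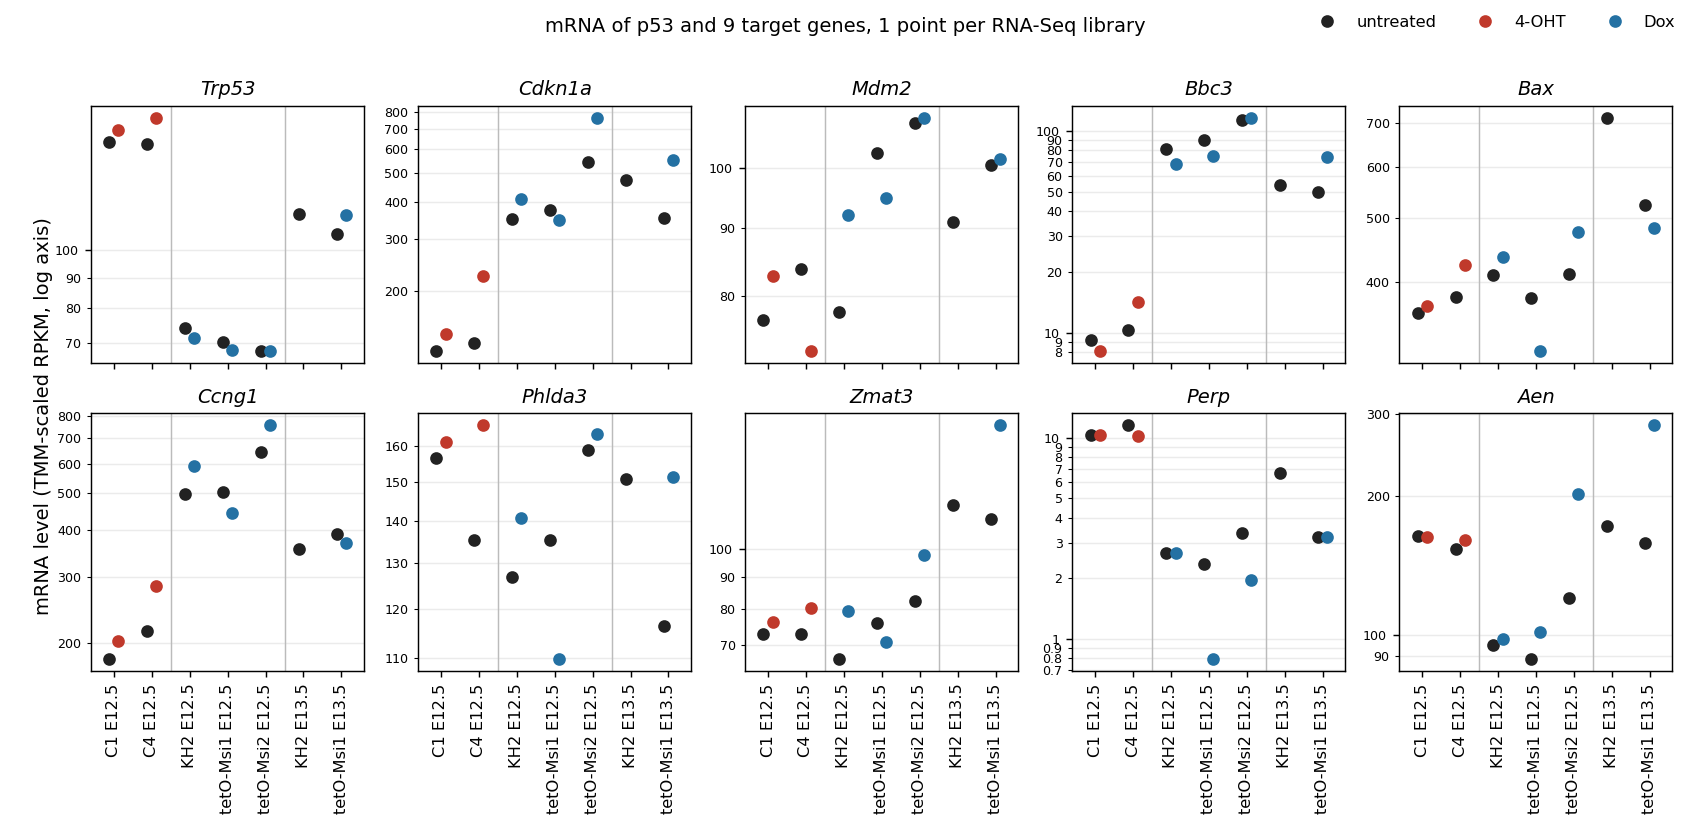
mRNA level of each gene (TMM-scaled RPKM, log axis, own scale per panel) in 13 RNA-Seq libraries, 1 point per library, with vertical lines between the floxed lines, the tet lines of E12.5 and those of E13.5. Cdkn1a, Ccng1 and Bbc3 are lowest in the 4 floxed libraries, and Trp53 and Perp are highest there.

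The first comparison asked whether the p53 targets changed in the library labelled C4 with 4-OHT, in which Cre was induced against both Msi genes and Msi2 mRNA alone was much lower. Cdkn1a, which encodes the cyclin-dependent kinase inhibitor p21, was at 126 and 144 RPKM in C1 cells without and with 4-OHT, and at 134 and 225 in C4 cells. The C4 library with 4-OHT was thus the highest of the 4, and the other 3 lay close together. The change in C4 cells was 1.67-fold (log2 0.74, 95% counting interval 0.67 to 0.81), against a log2 change of 0.19 (0.12 to 0.27) in C1 cells. Cdkn1a was the only member past 1.5-fold in C4 cells, where 9.88% of 11938 genes were past that limit, and it ranked 349 from the highest change. In C1 cells no member was past 1.5-fold, against 4.32% of genes.

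Other members moved less with 4-OHT. Ccng1, which encodes cyclin G1, was at 182 and 203 RPKM in C1 cells and at 216 and 285 in C4 cells, a log2 change of 0.40 (0.35 to 0.44) in C4 and 0.15 (0.11 to 0.20) in C1. Again the C4 library with 4-OHT was the highest of the 4. Bbc3, which encodes the BH3-only apoptosis inducer PUMA, was low in all 4 libraries, with 244 and 189 reads in C1 cells and 218 and 377 in C4 cells. Its log2 change was 0.46 (0.22 to 0.70) in C4 cells and -0.19 (-0.46 to 0.08) in C1 cells. Phlda3, an inhibitor of Akt signalling, was at 157 and 161 RPKM in C1 cells and at 136 and 166 in C4 cells. Mdm2 went the other way, from 83.8 to 72.6 RPKM in C4 cells (log2 -0.21, -0.27 to -0.14) and from 76.7 to 82.8 in C1 cells (0.11, 0.05 to 0.17).

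Trp53 itself stayed between 151 and 167 RPKM in all 4 floxed libraries. Bax, the pore-forming effector of mitochondrial apoptosis, lay between 358 and 425 RPKM, Zmat3, an RNA-binding zinc finger protein, between 72.8 and 80.1, and Aen, an apoptosis-enhancing nuclease, between 153 and 164. Of the counting intervals of the 10 members, 7 lay above 0 and 1 below in C4 cells, and 4 lay above 0 and none below in C1 cells. These intervals hold no spread between cultures, and the share of all genes with an interval off 0 was not worked out. The counts therefore do not set the members apart from other genes. In the C4 against C1 pairs, 2 members were past 1.5-fold with 4-OHT, Bbc3 (log2 0.81) and Cdkn1a (0.65), where 8.02% of genes were. Without 4-OHT no member was, against 7.72% of genes.

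The tests across all genes used edgeR's quasi-likelihood test with Benjamini-Hochberg adjustment. With both treatments as repeats, C4 against C1 cells called 5.89% of 11626 genes and 1 of the 10 members, Ccng1, at a log2 difference of 0.37 ± 0.07 (SE, adjusted p = 0.022). Cdkn1a (0.37 ± 0.12, adjusted p = 0.12) and Bbc3 (0.49 ± 0.20, adjusted p = 0.22) did not pass. Without the treatment as a block Ccng1 no longer passed (adjusted p = 0.48), nor did it in a fit of all 13 libraries (adjusted p = 0.26). For 4-OHT with both lines as repeats, 5.5% of genes and none of the members passed in edgeR (2 members at an unadjusted p under 0.05), and DESeq2 called Cdkn1a (adjusted p = 0.023). In edgeR Cdkn1a was at 0.47 ± 0.12 (adjusted p = 0.058) and Ccng1 at 0.27 ± 0.07 (adjusted p = 0.071), and without the filter on low counts edgeR called both (adjusted p = 0.00023 and 0.0074).

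A further test asked for the change with 4-OHT in C4 cells beyond that in C1 cells, in 1 fit of all 13 RNA-Seq libraries whose spread came from the other lines too. This comparison was added after the data were seen. It called 0 of 12546 genes (0% called, 232 at an unadjusted p under 0.05), and none of the members reached an unadjusted p under 0.05. The difference was 0.55 ± 0.31 for Cdkn1a, 0.65 ± 0.40 for Bbc3, 0.24 ± 0.27 for Ccng1 and -0.32 ± 0.24 for Mdm2 (log2, SE). With a Dox term for each line this test called 1 gene, Msi2 itself. The main fit thus missed Msi2, although its mRNA was much lower in C4 cells after 4-OHT. That fit held 1 Dox term for all tet lines, so effects of Msi induction counted as spread. It therefore cannot decide whether Cdkn1a rose more in C4 than in C1 cells.

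**Figure D2:**
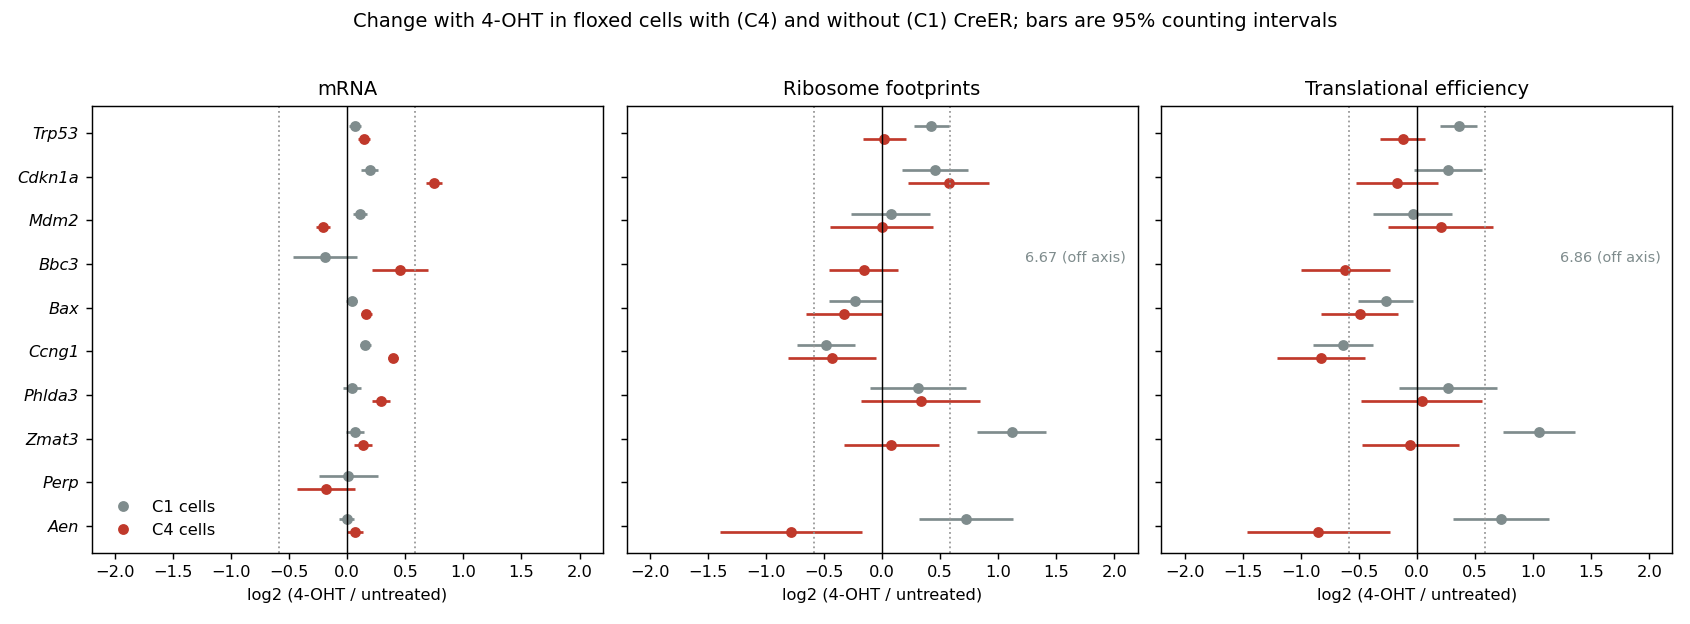
log2 change with 4-OHT in C1 and C4 cells for mRNA, ribosome footprints and translational efficiency, with 95% counting intervals as bars and dotted lines at 1.5-fold, and without Perp in the footprint and TE panels, where it had too few reads. Cdkn1a mRNA in C4 cells is the only mRNA value past a dotted line, and the footprint values scatter more widely than the mRNA values.

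Ribosome footprints asked whether these mRNA changes reached translation, and they were much sparser. Cdkn1a had 311 and 145 footprint reads in C1 cells without and with 4-OHT and 120 and 149 in C4 cells, or 72.1, 99.0, 96.9 and 144 RPKM. The C4 library with 4-OHT was again the highest. The log2 change of Cdkn1a footprints with 4-OHT was 0.57 (0.23 to 0.92) in C4 and 0.46 (0.17 to 0.74) in C1. Both intervals lay above 0, though the C1 value was -0.97 on the deposited RPKM scale. The change in C4 less that in C1 was 0.12 (-0.33 to 0.56) for Cdkn1a footprints, against 0.55 (0.45 to 0.65) for its mRNA. The larger change in C4 cells was thus not resolved in footprints. For Ccng1 footprints the log2 change with 4-OHT was -0.43 (-0.81 to -0.05) in C4 and -0.48 (-0.73 to -0.23) in C1, while its mRNA changed in the other direction. Trp53 footprints were 126 and 169 RPKM in C1 cells and 202 and 204 in C4 cells. The C1 library without 4-OHT was the lowest of the 4 for Trp53, Cdkn1a, Zmat3, Mdm2, Phlda3 and Bbc3 and the highest for Bax, Ccng1 and Perp.

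Bbc3 footprints went from 10 reads in untreated C1 cells to 346 in C1 cells with 4-OHT, 210 in untreated C4 cells and 157 in C4 cells with 4-OHT. The Ribo-Seq tables list 1 coding segment for Bbc3 (chr7:16897490-16897763), 47.3% of its annotated coding bases. In the KH2 and tetO-Msi1 libraries Bbc3 had 9 to 48 footprint reads at mRNA levels of 68.5 to 89.5 RPKM. The 3 libraries with the most Bbc3 footprints thus had less Bbc3 mRNA than the KH2 and tetO-Msi1 cells, and where on the segment these reads lay was not analysed here. Perp had 0 to 20 footprint reads in the 8 libraries and passed the limit of more than 5 reads in only 1 of them, so its footprints and translational efficiency are not compared. A count of 0 allows up to 3 reads, for counting error only.

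In C4 cells 1 of the 9 members with enough footprints was past 1.5-fold, Aen (lower), against 30.9% of 9499 genes. In C1 cells 3 were, Bbc3, Zmat3 and Aen, all higher, against 27.6% of 10562 genes. The share of members was near that of all genes in C1 cells and below it in C4 cells. None of the 10 members passed the footprint tests, for C4 against C1 (1.34% of 12426 genes called, 3 members at an unadjusted p under 0.05) or for 4-OHT (0.934% called, 3 members at an unadjusted p under 0.05), and DESeq2 called none of the 9 and 5 members to which it gave an adjusted p. On the deposited RPKM scale the 4-OHT change of footprints in C1 cells turned negative for 6 of the 9 members, Cdkn1a, Trp53, Mdm2, Phlda3, Zmat3 and Aen. None of the 9 changed sign once that scale was centred on the median gene. The share of the reads behind that scale that were counted on genes was 28.5% in untreated C1 cells and 7.46% to 11.2% in the other 3 floxed libraries. The part of this difference in the C1 values was not tested. In untreated C4 against untreated C1 cells Trp53 footprints were higher by a log2 of 0.68 (0.53 to 0.83), Zmat3 by 0.74 and Aen by 0.76, and the deposited RPKM scale turned these 3 and Cdkn1a, Mdm2 and Phlda3 negative, again with no change of sign after centring.

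Translational efficiency (TE) is the footprint level divided by the mRNA level, here on a log2 scale with the median of each library subtracted. Trp53 had a high TE throughout, from 0.82 to 1.79 above the median in the 8 libraries, and lay above 82.3% to 94.8% of genes. Cdkn1a lay above the median in all 8 libraries (0.18 to 1.01). Mdm2 was at -1.46 to 0.01, Aen at -1.26 to -0.37 and Bax at -0.72 to 0.07. Ccng1 was at -1.65 to -0.06, and its TE in the 4 KH2 and tetO-Msi1 libraries was above that of only 2.84% to 5.10% of genes. Phlda3 was above the median in those 4 libraries (0.41 to 1.04) and at -0.66 to 0.02 in the floxed lines, without overlap. Footprints and mRNA were counted over different lengths of a gene. The listed coding segments held 46.7% of the annotated coding bases of Aen, 47.3% of Bbc3, 74.5% of Trp53, 85.1% of Bax and 89.4% of Mdm2. The part of this in the TE levels was not tested.

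**Figure D3:**
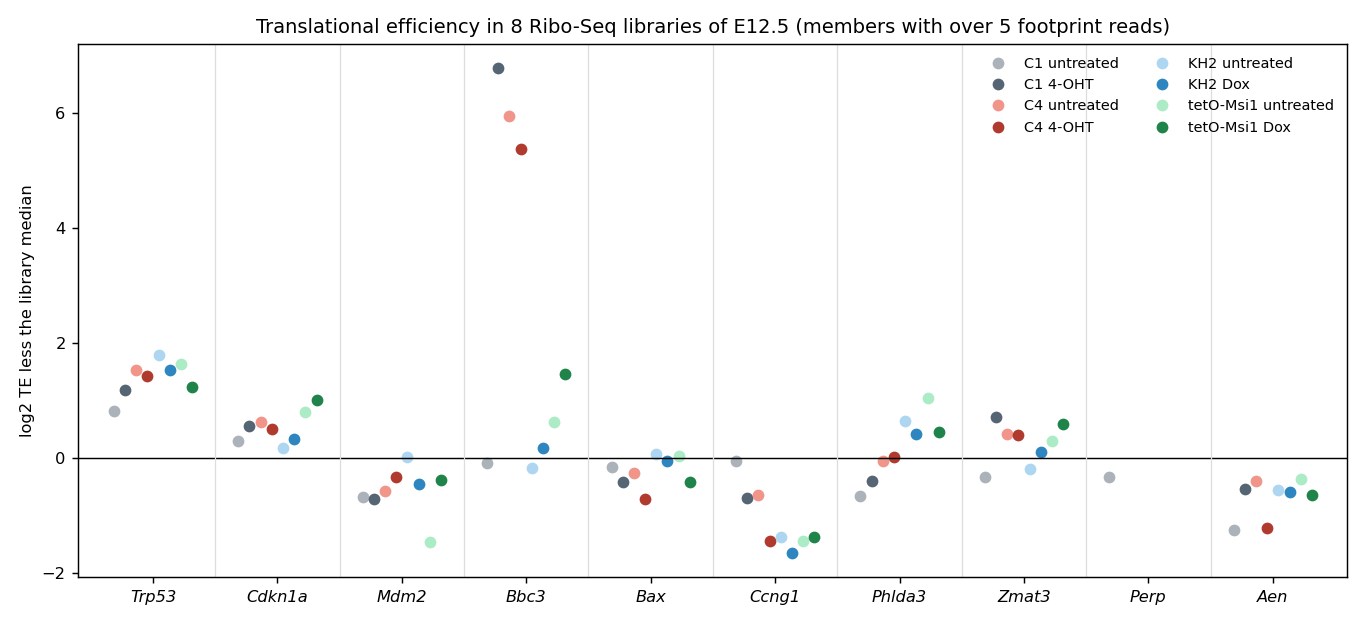
log2 TE less the median of the library for the members with more than 5 footprint reads, 1 point per Ribo-Seq library of E12.5. Trp53 and Cdkn1a lie above 0 in all 8 libraries and Aen below 0 in all 8, while Bbc3 splits, with 3 floxed libraries above 5.

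With 4-OHT the TE of Cdkn1a changed by a log2 of -0.17 (-0.52 to 0.18) in C4 cells and 0.26 (-0.03 to 0.56) in C1 cells. Past 1.5-fold were 3 of 9 members in C4 cells, Bbc3, Ccng1 and Aen, all lower, against 28.9% of 8463 genes. In C1 cells 4 were past it, Bbc3, Zmat3 and Aen higher and Ccng1 lower, against 25.1% of 9383 genes. No member passed the TE tests for C4 against C1 (0.0381% of 10490 genes called, 3 members at an unadjusted p under 0.05) or for 4-OHT (0% called, 1 member at an unadjusted p under 0.05), and DESeq2 called none of the 9 members to which it gave an adjusted p. The member nearest to a call was Ccng1, with a TE difference of -0.62 ± 0.18 in C4 against C1 (adjusted p = 0.25) and -0.71 ± 0.18 with 4-OHT (adjusted p = 0.55).

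Dox induction of Msi1 or Msi2 asked the converse question, with KH2 cells as the control for Dox itself. Aen mRNA was at 88.8 and 102 RPKM without and with Dox in E12.5 tetO-Msi1 cells, at 158 and 284 in those of E13.5, at 120.3 and 202 in tetO-Msi2 cells and at 95.3 and 98.0 in KH2 cells. It was higher with Dox in the tetO-Msi1 and tetO-Msi2 pairs and about level in KH2 cells, where the interval held 0. Its log2 change was 0.20 (0.01 to 0.38), 0.85 (0.79 to 0.91), 0.74 (0.61 to 0.88) and 0.04 (-0.12 to 0.20), in that order. In the test of Dox in tetO-Msi1 cells with both stages as repeats, Aen was the only member called, at 0.55 ± 0.16 (SE, adjusted p = 0.029), where 3.6% of 11938 genes were called. DESeq2 did not call Aen (adjusted p = 0.30), nor did the edgeR fits without the stage as a block or of all 13 libraries (adjusted p = 0.086).

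Cdkn1a split by stage, from 376 to 348 RPKM in E12.5 tetO-Msi1 cells and from 353 to 551 in those of E13.5. It went from 542 to 765 in tetO-Msi2 cells and from 351 to 409.9 in KH2 cells, so it was also higher with Dox in the control line. Bbc3 and Phlda3 were likewise lower with Dox at E12.5 and higher at E13.5 in tetO-Msi1 cells, and Bbc3 was also lower with Dox in KH2 cells (log2 -0.24). Trp53 moved by at most 0.10 on the log2 scale in the 4 pairs. At E12.5, the members past 1.5-fold were Perp (lower, on 3 reads) in tetO-Msi1 cells, Aen and Perp (lower) in tetO-Msi2 cells and none in KH2 cells, where 11.2%, 9.51% and 5.91% of all genes were past that limit. At E13.5 Cdkn1a and Aen were past it in tetO-Msi1 cells, both higher, against 6.71% of genes higher. That share leaves out genes that were lower, while the shares at E12.5 cover both directions. The difference of the Dox effect between stages or lines was not tested for single members.

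Footprints with Dox were read at E12.5 in tetO-Msi1 and KH2 cells. In tetO-Msi1 cells, Mdm2 had 62 reads without and 37 with Dox, or 16.5 and 33.1 RPKM, a log2 change of 1.00 (0.41 to 1.59), against -0.19 (-0.77 to 0.40) in KH2 cells. Its mRNA was not higher (-0.11), so its TE differed by a log2 of 1.11 (0.51 to 1.71). Phlda3 footprints were lower with Dox in tetO-Msi1 cells, at -0.85 (-1.50 to -0.20) on 133 and 22 reads, as were those of Bax, at -0.67 (-1.13 to -0.21), and of Trp53, at -0.41 (-0.81 to -0.00). The TE of Bbc3 was higher, at 0.87 (0.12 to 1.62) on 48 and 22 footprint reads. In KH2 cells the footprint values of Phlda3, Bax and Trp53 were -0.03, 0.00 and -0.27. Cdkn1a footprints were at 0.15 (-0.13 to 0.44) in tetO-Msi1 cells and 0.41 (0.02 to 0.81) in KH2 cells. Past 1.5-fold were 4 of 9 members in tetO-Msi1 cells, Mdm2 and Bbc3 higher and Phlda3 and Bax lower, against 24.9% of 7960 genes, and 1 in KH2 cells, Zmat3, against 21.7% of 7891. These are single libraries of few reads, and the intervals cover counting error only.

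**Figure D4:**
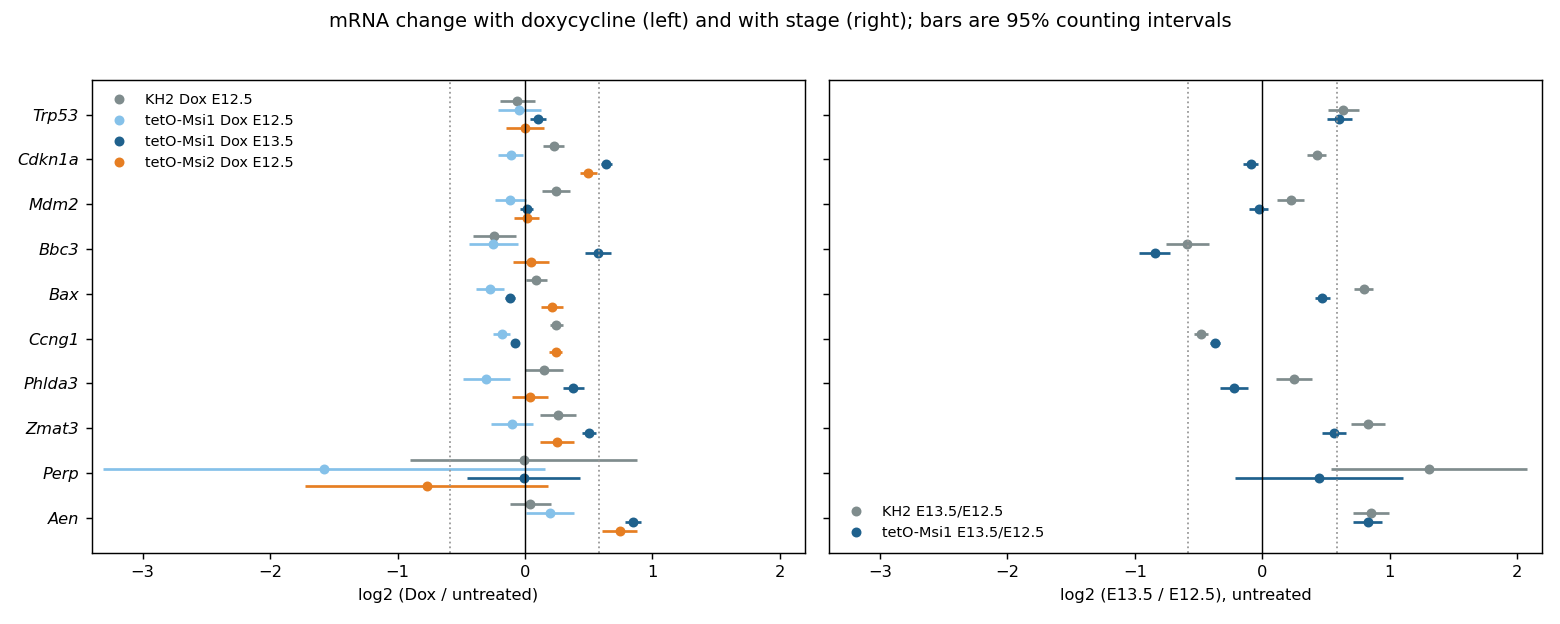
log2 change of mRNA with Dox in 4 pairs (left) and between stages in 2 untreated lines (right), with 95% counting intervals as bars and dotted lines at 1.5-fold. Aen is higher in tetO-Msi1 cells of E13.5 and tetO-Msi2 cells, and Bbc3 and Ccng1 are lower at E13.5 in both lines while Trp53, Bax, Zmat3 and Aen are higher.

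Between stages, untreated cells of E13.5 had more Trp53, Bax, Zmat3 and Aen mRNA than those of E12.5 and less Bbc3 and Ccng1. Each stage was a separate set of libraries, so stage and library set cannot be told apart in any of these values. Trp53 went from 74.1 to 115 RPKM in KH2 and from 70.1 to 107 in tetO-Msi1 cells (test over both lines, log2 0.60 ± 0.11, adjusted p = 0.0013). Aen went from 95.3 to 172 and from 88.8 to 158 (0.82 ± 0.12, adjusted p = 0.00023). Zmat3 went from 66.3 to 118 and from 75.9 to 112 (0.68 ± 0.12), and Bax from 410.2 to 713 and from 378 to 525 (0.62 ± 0.12). Bbc3 fell from 80.9 to 53.8 and from 89.5 to 49.9 (-0.74 ± 0.13) and Ccng1 from 497 to 356 and from 503 to 389.7 (-0.44 ± 0.10). On the deposited RPKM scale without centring, both genes were higher at E13.5 in both lines (Ccng1 at 0.55 in KH2 and 0.51 in tetO-Msi1, Bbc3 at 0.45 and 0.05), and with centring none of the 10 members changed sign. Cdkn1a differed between the lines, from 351 to 471 in KH2 and from 376 to 353 in tetO-Msi1 cells (0.15 ± 0.13, adjusted p = 0.37), and it passed in a fit of all 13 libraries (0.35, adjusted p = 0.028, edgeR). The 6 called members stand against 50.8% of 11893 genes called, a share near theirs. Of the reads behind the deposited RPKM values, 14.9% to 15.8% were counted on genes in the 6 tet libraries of E12.5 and 30.0% to 32.0% in the 2 of E13.5 for which this was computed, and this part in the stage difference was not tested.

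The floxed lines stood apart from the tet lines more than any treatment did, in a comparison also added after the data were seen. Bbc3 mRNA was 8.09 to 14.2 RPKM in the 4 floxed libraries, 68.5 to 116 in the 6 tet libraries of E12.5 and 49.9 to 74.2 in the 3 of E13.5. Cdkn1a was 126 to 225 in the floxed libraries, 348 to 765 in the tet libraries of E12.5 and 353 to 551 in those of E13.5. Ccng1 was 182 to 285, 443 to 758 and 356 to 389.7 in the same order. These 3 targets were lower in all floxed libraries than in all tet libraries of either stage. Trp53 had the opposite order, 151 to 167 in floxed cells, 67.7 to 74.1 in tet cells of E12.5 and 107 to 115 in those of E13.5, and so had Perp, with 10.1 to 11.5, 0.793 to 3.35 and 3.20 to 6.64.

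Without overlap between the floxed libraries and the tet libraries of E12.5 were 5 of 10 members, against 64.3% of 12345 genes. Against those of E13.5 it was 8 of 10, against 65.5%. In the test of untreated C1 and C4 against untreated KH2, tetO-Msi1 and tetO-Msi2 cells, 66.3% of 12211 genes and 6 of 10 members were called. These were Bbc3 (log2 -3.27 ± 0.18, adjusted p = 3.4e-05), Cdkn1a (-1.70 ± 0.20, adjusted p = 0.00048), Ccng1 (-1.46 ± 0.15), Trp53 (1.10 ± 0.09), Perp (1.97 ± 0.26) and Aen (0.64 ± 0.15). With the tet cells of E13.5 in place of those of E12.5, Aen turned to -0.07, and Zmat3 (-0.67) and Bax (-0.76) were called lower. Without KH2 cells Mdm2 was called lower (-0.40, adjusted p = 0.025). The member share was near the share of all genes.

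Footprints of untreated cells gave the same direction for Cdkn1a, 72.1 and 96.9 RPKM in C1 and C4 against 174 and 288 in KH2 and tetO-Msi1 (log2 -1.58 ± 0.28, adjusted p = 0.0016). Phlda3 was also lower (-1.10 ± 0.32, adjusted p = 0.023), though its mRNA was not (0.05 ± 0.13, adjusted p = 0.74). They were the only 2 of 10 members called, against 31.6% of 12097 genes, and neither was called without TMM factors. Without the untreated C1 library or the tetO-Msi1 library Phlda3 lost its call (adjusted p = 0.068 and 0.30). Without untreated C1 cells Trp53 footprints were called higher (0.92, adjusted p = 0.0049), and Bbc3 was called at 2.52 without C1 and at -3.62 without C4 cells. Line, mouse cross, labelled time and library preparation cannot be told apart here. The labelled time was 48 h for floxed and 72 h for tet cells, untreated ones included. The share of reads counted on genes (32.1% to 34.1% in the floxed RNA-Seq libraries) separated the floxed lines from the tet lines of E12.5 as well. The 6 neuronal markers found, of 7 listed, summed to 311 to 339 CPM in the floxed libraries. The sum was 590 to 680 in the tet libraries of E12.5 and 520 to 748 in those of E13.5. Most of this sum was the single gene Map2, at 263 to 694 CPM over the 13 libraries. Tubb3 was at 21.8 to 49.9 CPM, Dcx, Rbfox3 and Snap25 at no more than 8.29, and Neurod6 at or near 0. The sum therefore does not show how the neuronal markers other than Map2 differed. The 4 astrocyte markers summed to 1120 to 1404 CPM in the floxed libraries, 705 to 1511 in the tet libraries of E12.5 and 1002 to 1285 in those of E13.5, which overlap. Among them Gfap (152 to 417, 0 to 5.56 and 37.9 to 81.8 CPM), Aqp4 (91.7 to 156, 14.3 to 50.5 and 51.3 to 68.7) and S100b (17.9 to 22.4, 2.14 to 7.45 and 5.10 to 7.46) were highest in the floxed libraries, and Aldh1l1 (810 to 958, 687 to 1459 and 905 to 1157) overlapped. The part of these cell states in the member differences was not tested, and in bulk RNA fewer cells of a type and less RNA per cell cannot be told apart.

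A wider list of p53 targets and a list of p53 regulators, drawn up from background knowledge, put the 10 members in context. Of 41 further targets tested in C4 against C1, none was higher and 4 (9.76%) were lower, beside 5.89% of all genes called, with a median of 0.00 over the list and over all genes. They were Sfn, the cell-cycle inhibitor 14-3-3 sigma (log2 -3.44 ± 0.49, with 87, 65, 10 and 3 reads in C1 without, C1 with, C4 without and C4 with 4-OHT), Fas, the death receptor (-0.91 ± 0.09), Ddit4l, an mTORC1 inhibitor (-0.79 ± 0.12), and Tgfa, an EGF receptor ligand (-0.48 ± 0.10). Sfn met the filter on low counts only through the C1 libraries, where it was higher, so its call is not counted as support. Of the targets that passed, Ccng1 was thus higher in C4 cells and these 4, with Sfn among them, were lower. With 4-OHT, 4 of the 41 rose and 3 fell (17.1% called, all genes 5.5%), with Fas going from 54.9 to 21.4 CPM in C1 and from 29.1 to 11.4 CPM in C4. These 7 became 13 without the filter on low counts, 2 in the fit of all 13 libraries and 0 without the block. Between stages 8 of 40 were higher and 19 lower (67.5%, all genes 50.8%), in floxed against tet lines 9 of 42 were higher and 23 lower (76.2%, all genes 66.3%), and with Dox none passed in edgeR (8 at an unadjusted p under 0.05). None of 13 regulators passed in C4 against C1 in edgeR (0 at an unadjusted p under 0.05). With 4-OHT 2 regulators rose, Chek1 and Chek2, with Dox 1 fell, between stages 2 were higher and 1 lower, and 3 were higher and 2 lower in the floxed lines. These are 15.4%, 7.69%, 23.1% and 38.5% of the 13, beside 5.5%, 3.6%, 50.8% and 66.3% of all genes. Mdm4, the p53-inhibiting relative of Mdm2, was at 6.74 to 8.03 CPM in the 4 floxed libraries, and Ppm1d, the phosphatase WIP1 and a target itself, at 55.3 to 68.0 CPM. Cdkn2a, which encodes the Mdm2 inhibitor ARF, was not analysed here.

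Genes of cell division that p53 is known to lower through p21 and the DREAM repressor complex formed another list, of 18 genes. With 4-OHT, 17 of the 18 rose and none fell in the test over both lines (94.4%, all genes 5.5%), with a list median of 0.78 beside 0.00 over all genes. Without the block none passed, as for all genes. All 18 were past 1.5-fold in C4 cells (median 1.02) and 11 in C1 cells (median 0.63), in each case higher, beside 9.88% and 4.32% of all genes in either direction. Cdk1, the mitotic kinase, went from 82.0 to 125 CPM in C1 and from 68.9 to 149 in C4, and Plk1 from 45.2 to 75.6 and from 35.6 to 92.5. Ccnb1, cyclin B1, was at 1.10 to 2.41 CPM (log2 0.69, adjusted p = 0.17). The list rose in C1 cells too, and the C4 library with 4-OHT was also the one in which Cdkn1a was highest among the floxed cells. A link between Cdkn1a and these genes was not tested. In the floxed lines against the tet lines of E12.5, 16 of these 18 genes were lower and 2 higher, with a median of -2.71, beside 66.3% of all genes called. Cdk1 was at -2.11 and Plk1 at -2.82. Cdkn1a was lower there too, and a link was again not tested. In C4 against C1 cells 1 was higher and 1 lower (11.1%, all genes 5.89%), between stages 4 were higher and 6 lower (55.6%, all genes 50.8%), and with Dox none passed in edgeR (2 at an unadjusted p under 0.05).

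Over the 13 RNA-Seq libraries the members fell into unlike patterns. Trp53 ran with Perp (Pearson r 0.90) and against Ccng1 (-0.92) and Bbc3 (-0.91), while Cdkn1a, Bbc3 and Ccng1 ran together (r 0.90 to 0.94). Bax and Zmat3 (0.73) and Zmat3 and Aen (0.74) formed a further pattern. Most like Cdkn1a among 12345 genes were 2310061C15Rik (0.97), Fancc (0.96), 2810055F11Rik (0.96), Plcg1 (0.96) and Slc2a10 (0.96), and 1383 genes had an r over 0.8. Most like Trp53 were Slc23a2 (1.00), Noc4l (0.99), Usp10 (0.99), Ddx51 (0.99) and Bop1 (0.99), and 2441 genes had an r over 0.8. These values describe 13 libraries that share lines and stages.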

How the data were processed

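The 14 RNA-Seq and 8 Ribo-Seq libraries of cultured NSCs were used (22 samples). The authors deposited whole-number read counts per Ensembl gene and RPKM values, made with their own pipeline on mm9 (Bowtie and TopHat in the submitters' processing notes), and counted footprints over listed coding segments. RPKM equalled the count over a length and a constant number of reads per library.

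Counts were tested with edgeR 4.0.16 (TMM, genes kept at 1 CPM or more in 2 or more libraries, quasi-likelihood test, Benjamini-Hochberg adjustment over all genes, threshold 0.05), with the other condition as repeats and as a block. DESeq2 1.42.0 was an alternative. TE was tested as the interaction of assay and condition. Repeats are other conditions or lines, so p-values hold no spread between cultures of a condition. With so few libraries, the spread used for a gene was largely pooled over genes, and wholly so in the Dox test. Single pairs are log2 ratios of TMM-scaled counts with 95% counting intervals, which cover counting error only. Limits were 1.5-fold, a mean of at least 1 RPKM (mRNA), and more than 5 reads in every library used (footprints, TE). Levels are TMM-scaled RPKM, with 0.5 added before logs for correlations.

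The members and lists were chosen with earlier results of these data known. All 10 members were named, as were list genes past the threshold in C4 against C1 and preset ones (Mdm4, Ppm1d, Cdkn2a, Ccnb1, Cdk1, Plk1), and the 5 genes most like Cdkn1a and Trp53. Tigar and Pidd1 were matched by synonyms (9630033F20Rik, Lrdd). Positions came from GENCODE vM1 on NCBIM37. On simulated data with 200 of 11626 genes changed 4-fold, the C4 against C1 mRNA test called 100% of them and 10 others, and the footprint test called 77.5% of 200 among 12426 genes and 3 others. The TE test called 72.5% of 200 among 10490 genes and 7 others, the test beyond C1 89% among 12546 and 11 others, and the floxed test 100% among 12211 and 7 others. Within each simulated test all genes had the same preset spread. Apart from the 200 changed genes, no line, stage or Msi induction altered a gene. The real data differ in both respects, so these shares do not give the power of the tests on them. R 4.3.3 and limma 3.58.1 were used, with Python, numpy, pandas and matplotlib. Whether reads of Trp53 and its pseudogene Trp53-ps were kept apart is not given in the sources used here.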

Additional observations from a re-analysis of the deposited data

Results flagged for a closer look

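Opposite directions under the same contrast, with both counting intervals on one side of 0, were seen in the following pairs of log2 changes, and none of these differences was tested except that of Mdm2 with 4-OHT, which did not pass (adjusted p = 1.0, edgeR). Mdm2 mRNA changed by -0.21 with 4-OHT in C4 cells and by 0.11 in C1 cells. With Dox in tetO-Msi1 cells, mRNA at E12.5 and E13.5 changed by -0.30 and 0.38 for Phlda3, by -0.11 and 0.64 for Cdkn1a and by -0.25 and 0.57 for Bbc3. With Dox at E12.5 in tetO-Msi1, tetO-Msi2 and KH2 cells, mRNA changed by -0.18, 0.24 and 0.25 for Ccng1 and by -0.27, 0.21 and 0.0879 for Bax. For Cdkn1a the tetO-Msi2 and KH2 values were 0.50 and 0.23, and for Phlda3 the KH2 value was 0.15. Between stages, mRNA changed by 0.25 in KH2 and -0.22 in tetO-Msi1 cells for Phlda3, and by 0.43 and -0.0893 for Cdkn1a. Aen footprints changed by -0.78 with 4-OHT in C4 cells and by 0.72 in C1 cells, and its TE by -0.85 and 0.73. The TE of Bbc3 changed by -0.62 in C4 cells and by 6.86 in C1 cells, where untreated cells gave 10 footprint reads.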

How the results depend on the processing

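No condition had a biological replicate, and sparse footprints limited TE. The labels pair no samples by number, and the block was the other condition. Counts of members called moved by over 1.5 times as follows. For C4 against C1 mRNA the count was 2 with no filter and 0 with no block or in all 13 RNA-Seq libraries. For 4-OHT mRNA it was 2 with no filter and 1 in DESeq2, and for Dox it was 0 with no block, in DESeq2 and in all 13. Each footprint test of C1 and C4 called 1 with no filter, and floxed against tet footprints called 0 without TMM and 1 to 3 leaving out a library in turn.

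Counts over all genes moved further. C4 against C1 mRNA went from 685 to 1240 (no filter), 30 (no block) and 201 (all 13), 4-OHT from 639 to 1254, 0 and 126, and Dox from 430 to 0 (no block), 104 (DESeq2) and 38 (all 13). Footprints of C4 against C1 went from 166 to 83 (no TMM), 289 (no filter), 6 (no block) and 84 (DESeq2), and of 4-OHT from 116 to 179 (no filter) and 2 (no block). TE of C4 against C1 went from 4 to 160 and of 4-OHT from 0 to 22 in DESeq2, the test beyond C1 from 0 to 1 with a Dox term per line, and floxed against tet footprints from 3828 to 261 without TMM and to 2347 (without tetO-Msi1) up to 4313 (without C4) leaving out a library. Member values past 1.5-fold over the single pairs numbered 17 (mRNA), 15 (footprints) and 18 (TE), against 2, 4 and 5 at 2-fold, and 28 (footprints) and 29 (TE) on deposited RPKM.

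Counts called in the further lists also moved. The wider targets went from 4 to 7 (no filter) and 0 (no block) for C4 against C1, and from 7 to 13, 0 and 2 (all 13) for 4-OHT. The regulators went from 2 to 0 for 4-OHT (no block, all 13), from 1 to 0 for Dox (no block, DESeq2, all 13) and from 5 to 2 for floxed against tet lines of E13.5. The DREAM list went from 2 to 0 (no block) and 1 (all 13) for C4 against C1 and from 17 to 0 (no block) for 4-OHT.

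Of 589 member values in the tests under alternatives, 542 kept direction and side of the threshold, 8 lost it, 14 gained it and 25 changed sign. Of 654 in single pairs, 567 stayed within their counting interval, 74 moved outside it and 13 past 1.5-fold changed sign. Past that limit or not, 49 of 208 values changed sign on deposited RPKM (13 of mRNA, 19 of footprints, 17 of TE) and 3 once it was median centred, the largest of these 3 at 0.0217. The values in the tests that changed sign were, for Dox in all 13 libraries, Ccng1 0.0839 and Mdm2 0.0293, and for stage Phlda3 with no filter (0.0187), no block (0.0083), all 13 (0.15) and without a technical replicate (-0.0138 to 0.0041). For 4-OHT without TMM they were footprints of Aen (-0.0556) and Mdm2 (-0.0551) and TE of Cdkn1a (-0.0120), and for TE of the line with no block Perp (-0.0269). In floxed against tet mRNA they were Aen against E13.5 (-0.0667) and, leaving out a library in turn, Zmat3 (-0.132 to 0.0236, positive without tetO-Msi2) and Phlda3 (-0.0269 to 0.18, negative without C1 or KH2). In floxed against tet footprints without TMM they were Ccng1 1.00, Mdm2 1.39, Zmat3 1.11, Phlda3 0.0634 and Bax 0.93. Leaving out a library there gave -0.58 to 0.45 for Mdm2 (positive without C1 or KH2), -0.41 to 0.42 for Zmat3 (positive without C1 or tetO-Msi1) and -3.62 (without C4, adjusted p = 0.00045, edgeR) to 2.52 (without C1) for Bbc3, and DESeq2 gave Zmat3 0.0075. On deposited RPKM, the single-pair values past 1.5-fold that changed sign were Bbc3 mRNA by stage (0.45 in KH2, 0.0546 in tetO-Msi1), Zmat3 and Aen with 4-OHT in C1 (footprints -0.31 and -0.71, TE -0.37 and -0.70), and in untreated C4 against C1 the footprints of Trp53 (-1.27), Zmat3 (-1.20) and Aen (-1.19) and the TE of Trp53 (-1.22), Phlda3 (-1.31), Zmat3 (-1.17) and Aen (-1.06). The cause was not tested.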
